A study of Homo sapiens with 12 samples.

Results

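The genes described here are 8 kinases that phosphorylate splicing proteins rich in arginine and serine (SR proteins): CLK1, CLK2, CLK3, CLK4, SRPK1, SRPK2, PRPF4B and DYRK1A. They were picked by gene name and are 8 of the 60106 genes in the counting tables, each with 1 entry. The rule sets no limit on any value, but the set was selected on results of these data: CLK4 and CLK1 were already known to be higher after siFOXA1 in VCaP. The values of siFOXA1 against control are therefore given as a description, with fold changes, standard errors and calls but no test of the set.

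RNA from 2 human prostate cancer lines was sequenced after siRNA against FOXA1 (siFOXA1), a forkhead transcription factor of prostate epithelium, or after a non-targeting siRNA (NSI). PC3 cells, in RPMI-1640, received 20 nM siRNA and gave polyA libraries (TruSeq stranded mRNA). VCaP cells, in DMEM, received 40 nM and gave total RNA libraries (TruSeq total RNA). Both were transfected with RNAiMax and lysed at 72 h, with 3 libraries in each of the 4 groups, and the title of the study puts the question as how FOXA1 bears on splicing factors. The labels name no siRNA sequence and do not say whether the replicates were separate cultures, so the calls measure only the spread between these libraries. PC3 was derived from a bone metastasis and VCaP from a vertebral metastasis. In the PC3 NSI libraries KLK3 and KLK2, secreted proteases of the luminal prostate, averaged under 0.1 CPM (counts scaled to library size). In VCaP NSI KLK3 averaged 69.5 CPM and KLK2 averaged 1630 CPM. Of 8 prostate epithelial markers, 7 were lower and 1, KRT18, was higher in PC3 NSI than in VCaP NSI (edgeR adjusted p under 0.05). Of all genes tested 39.8% were lower and 47.4% higher. KRT18 averaged 275.5 CPM in PC3 NSI and 125.4 in VCaP NSI, and KRT8 averaged 127.5 and 230.5.

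As background, SR proteins bind exons and recruit the splicing machinery, and their work depends on repeated phosphorylation and dephosphorylation of their serine-arginine tails. SRPK1 and SRPK2 act mainly in the cytoplasm and mark SR proteins for import into the nucleus. The CLK kinases act in the nucleus, where they release SR proteins from nuclear speckles towards transcription sites. PRPF4B phosphorylates parts of the tri-snRNP, the particle that joins the spliceosome before it is activated, and DYRK1A, encoded on chromosome 21, phosphorylates splicing factors besides other proteins. CLK1 and CLK4 are close relatives, and CLK1 is known to be regulated through introns kept in its own transcript.

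The CLK kinases are called LAMMER kinases after a conserved motif of their catalytic domain, and this stretch is shown because it gave the family its name. Each sequence below is 30 bases of the coding strand in GRCh37 (GENCODE transcripts), 5′ to 3′, with capitals at the 12 positions where the 4 genes are not all alike.
CLK1: gagcaTTtAgCAatgatggaAAGGatTCtT
CLK2: gagcaTCtAgCCatgatggaAAGGatCTtG
CLK3: gagcaCCtGgTGatgatggaGAAGatCCtA
CLK4: gagcaCCtGgCAatgatggaACGAatATtA
The stretch lies in exon 11 of 13 of each reference transcript, at chr2:201719374-201719403 (minus strand) for CLK1, chr1:155234047-155234076 (minus) for CLK2, chr15:74920960-74920989 (plus) for CLK3 and chr5:178032339-178032368 (minus) for CLK4. The coding sequences of CLK1, CLK2 and CLK4 spelled all 6 letters of the name, and that of CLK3 held the stretch without the full name. CLK1 differed from CLK4 at 8 of the 30 bases and from CLK2 at 5. Counts over so short a stretch do not measure how far apart the whole coding sequences are. The stretch was found in none of the other 4 kinases. No sequence of 50 bases was shared between transcripts of different members, so exact matches of that length separate CLK1 from CLK4. With transcripts of other genes, members shared between 0.0% (SRPK1) and 3.28% of such sequences, the highest being CLK2 with the pseudogene CLK2P1.

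CLK1 and CLK4 were higher together in VCaP, so the 250 bases before their annotated starts are shown (RefSeq, GRCh38.p14), with capitals where the letters TGTTTAC of the forkhead motif occur on either strand.
CLK1: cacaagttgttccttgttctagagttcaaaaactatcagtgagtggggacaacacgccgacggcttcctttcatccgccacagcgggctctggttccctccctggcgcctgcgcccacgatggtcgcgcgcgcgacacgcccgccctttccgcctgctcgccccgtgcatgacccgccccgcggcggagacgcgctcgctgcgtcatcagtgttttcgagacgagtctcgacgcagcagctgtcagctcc
CLK4: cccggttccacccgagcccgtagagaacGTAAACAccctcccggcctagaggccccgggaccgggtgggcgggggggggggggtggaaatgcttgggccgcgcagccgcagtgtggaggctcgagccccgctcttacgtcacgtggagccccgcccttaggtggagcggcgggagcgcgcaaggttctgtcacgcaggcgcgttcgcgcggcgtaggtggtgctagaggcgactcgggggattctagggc
The CLK1 window is chr2:200864659-200864908 and the CLK4 window chr5:178627051-178627300, both read on the minus strand. The CLK4 window held TGTTTAC once, on the strand opposite to the gene, and the CLK1 window did not hold it. Of 35116 windows of this length, 3.0% held TGTTTAC on either strand, 3.2% TGTTTGC, 2.4% TATTTAC and 2.6% TATTTGC, and 10.6% held at least 1 of these 4 forkhead spellings. Among the 17 windows of the 7 members in the table, 3 held a forkhead spelling: that of CLK4, 1 of SRPK2 (TGTTTAC) and 1 of DYRK1A (TATTTGC). The ETS letters CCGGAAG, present on either strand in 8.5% of all windows, were in none of the 17. PRPF4B had no window. A match is a run of letters, and binding was not measured here.

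The siRNA lowered its target in both lines. FOXA1 stood at 301.5, 243.8 and 267.5 CPM in the PC3 NSI libraries and at 163.6, 182.8 and 160.5 in PC3 siFOXA1. In VCaP it stood at 457.1, 470.9 and 545.2 CPM with NSI and at 85.4, 73.0 and 82.4 with siFOXA1. The siFOXA1 mean was 62.4% of the NSI mean in PC3 and 16.3% in VCaP, so the lines are compared at unequal remaining FOXA1. CPM here are scaled with TMM factors within a line. In RNA from bulk cultures, less mRNA per cell and fewer cells that make it cannot be told apart.

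**Figure D1:**
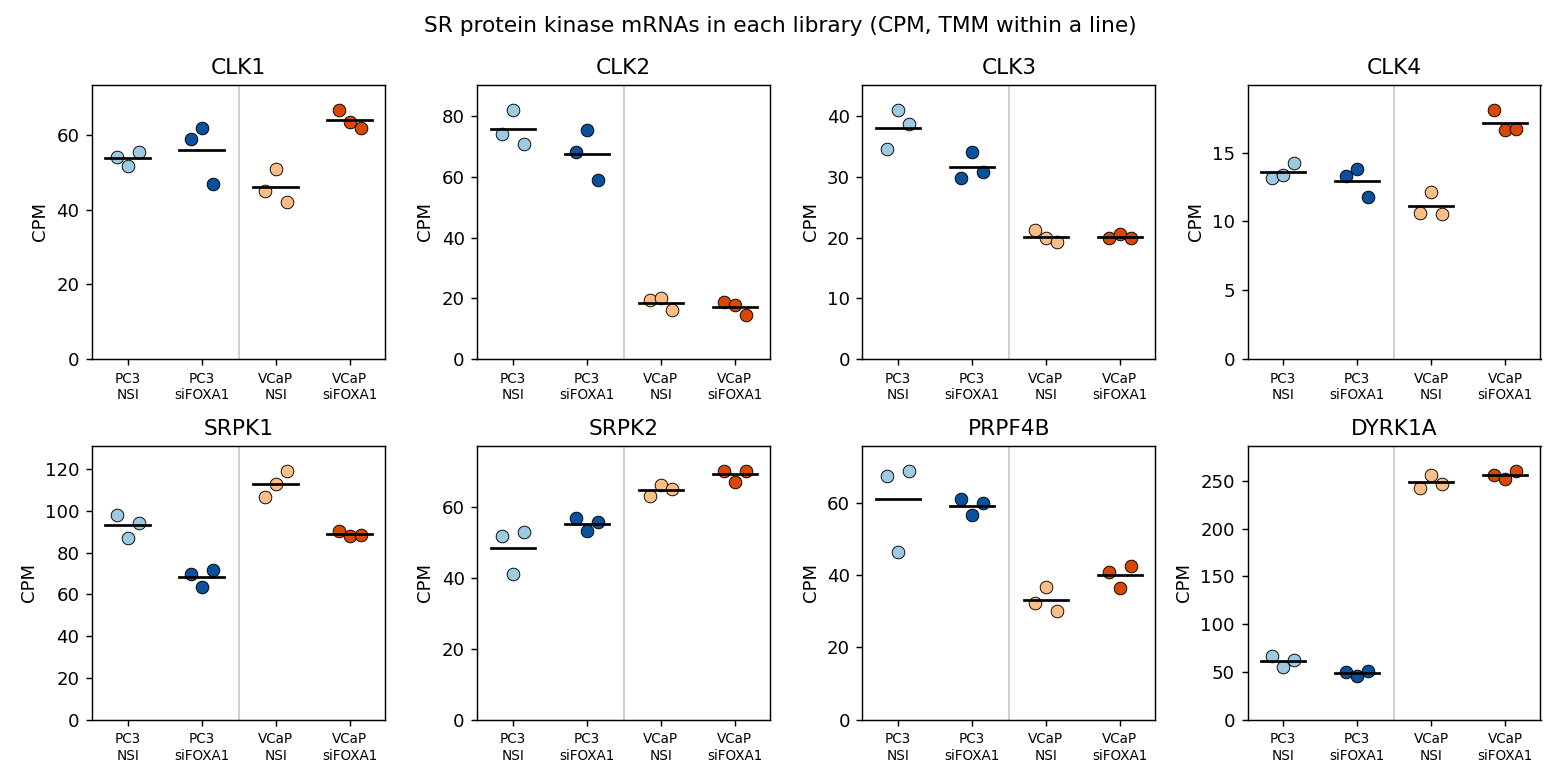
Each panel plots 1 kinase, with CPM on the vertical axis from 0 and the 4 groups on the horizontal axis. Points are libraries and bars the mean of 3. The siFOXA1 points lie above all NSI points for CLK1 and CLK4 in VCaP and for SRPK2 in both lines. They lie below them for SRPK1 in both lines and for CLK3 and DYRK1A in PC3. Over all genes tested 22.3% lay above and 22.6% below in PC3, and 27.2% and 28.8% in VCaP.

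CLK4 (ENSG00000113240.12_3, chr5:178029665-178054115, minus strand) was the kinase with the highest fold change in VCaP. Gene positions are those of the counting tables, GENCODE 28 on GRCh37. The VCaP NSI libraries held 10.6, 12.2 and 10.5 CPM of CLK4 and the siFOXA1 libraries 18.1, 16.6 and 16.7. The groups did not overlap, and the mean went from 11.1 ± 0.914 to 17.1 ± 0.827 CPM (SD, n = 3). The log2 fold change was 0.63 with a standard error of 0.08, 1.55-fold, and passed the call threshold, an edgeR adjusted p under 0.05 over all genes tested. In PC3 the NSI libraries held 13.2, 13.3 and 14.2 CPM and the siFOXA1 libraries 13.3, 13.8 and 11.8. Those groups overlapped, and the log2 fold change of -0.07 (SE 0.10) did not pass.

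CLK1 (ENSG00000013441.15_3, chr2:201717732-201729467, minus strand), the best studied nuclear SR kinase, showed the same pattern at a higher level. In VCaP it stood at 45.0, 50.8 and 42.2 CPM with NSI and at 66.8, 63.6 and 61.9 with siFOXA1, again without overlap. Its log2 fold change there was 0.48 (SE 0.075), 1.39-fold, and passed. In PC3 the NSI libraries held 54.2, 51.8 and 55.5 CPM and the siFOXA1 libraries 59.0, 61.9 and 46.9. The siFOXA1 libraries in PC3 were thus on both sides of the NSI ones, with a log2 fold change of 0.055 (SE 0.11) that did not pass. The calls of CLK1 and CLK4 in VCaP passed in all 16 alternatives, the 6 that leave out 1 library each among them.

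CLK2 (ENSG00000176444.18_2, chr1:155232659-155243307, minus strand) and CLK3 (ENSG00000179335.18_3, chr15:74900713-74922542, plus strand), the other 2 members of the family, did not pass in either line. CLK2 stood at 74.2, 82.0 and 70.9 CPM in PC3 NSI and at 68.1, 75.3 and 58.8 in PC3 siFOXA1, and at 19.6, 20.0 and 16.2 against 18.7, 17.8 and 14.4 in VCaP. The groups overlapped in both lines, with log2 fold changes of -0.17 (SE 0.11) in PC3 and -0.13 (SE 0.115) in VCaP. CLK3 stood at 34.6, 41.1 and 38.8 CPM in PC3 NSI and at 29.8, 34.2 and 30.9 in PC3 siFOXA1, every siFOXA1 library being below every NSI library. Its log2 fold change in PC3 was -0.27 (SE 0.10) and did not pass. With the replicate number as a block, which the correlations of the PC3 replicates allow, the PC3 change of CLK3 was -0.27 and passed, as 22.9% of the genes tested did in that direction. It also passed under upper-quartile scaling (-0.33) and in the fit over 12 libraries (-0.24). In VCaP CLK3 stayed between 19.3 and 21.3 CPM in all 6 libraries, with a log2 fold change of -0.002 (SE 0.065).

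The make-up of the CLK mRNAs, as each gene's share of the 4 CLK values per kilobase, does not depend on how libraries are scaled. In VCaP CLK1 held 48.4%, 51.3% and 49.95% of the CLK total with NSI and 57.0%, 56.5% and 58.1% with siFOXA1. The share of CLK4 went from 7.42% ± 0.331 to 9.42% ± 0.285, and that of CLK2 from 23.0% ± 1.09 to 17.2% ± 1.53 (SD, n = 3). That of CLK3 went from 19.7% ± 1.38 to 16.2% ± 0.768. None of the 4 shares overlapped between the VCaP groups. The shares are parts of 1 total, so higher shares of CLK1 and CLK4 bring lower shares of CLK2 and CLK3. The levels of CLK2 and CLK3 themselves did not pass in VCaP (log2 fold changes of -0.13 and -0.002). In PC3 CLK2 was the largest part, at 47.2% ± 2.12 with NSI and 45.4% ± 0.473 with siFOXA1, while CLK1 held 29.5% ± 1.99 and 33.0% ± 1.45. The CLK1 share was apart in PC3 too, at 27.2% to 30.8% with NSI and 31.5% to 34.4% with siFOXA1, and the other 3 shares overlapped. The level of CLK1 itself did not pass in PC3, with a log2 fold change of 0.055, where CLK2 was at -0.17 and CLK3 at -0.27. CLK1 exceeded CLK4 by 6.30-fold to 6.68-fold per kilobase in PC3 NSI and by 6.51-fold to 6.87-fold in VCaP NSI. These ratios and the shares depend on the exon lengths used, 2472 bases for CLK1 and 4012 for CLK4.

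SRPK1 (ENSG00000096063.15_4, chr6:35800743-35889119, minus strand), the cytoplasmic SR kinase, fell in both lines. PC3 libraries held 97.8, 86.8 and 94.4 CPM with NSI and 69.7, 63.6 and 71.6 with siFOXA1. VCaP libraries held 106.5, 113.1 and 119.3 CPM with NSI and 90.6, 87.9 and 88.4 with siFOXA1. All siFOXA1 libraries were below all NSI libraries in each line. The siFOXA1 mean was 73.4% of the NSI mean in PC3 and 78.8% in VCaP. The log2 fold changes were -0.45 (SE 0.09) and -0.34 (SE 0.06), and both passed. The call held in 15 of 16 alternatives in each line and was lost where a log2 change beyond 0.26 was required.

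SRPK2 (ENSG00000135250.16_4, chr7:104756823-105029341, minus strand), its paralogue, stood at 51.9, 41.1 and 52.9 CPM in PC3 NSI and at 56.9, 53.2 and 55.8 in PC3 siFOXA1. In VCaP it stood at 63.2, 66.3 and 65.1 CPM with NSI and at 70.2, 67.3 and 70.4 with siFOXA1. The siFOXA1 libraries were all above the NSI libraries in both lines, by narrow margins, and neither log2 fold change passed (0.18, SE 0.11, in PC3 and 0.09, SE 0.055, in VCaP). The share of SRPK1 in the SRPK1 and SRPK2 total per kilobase was 62.1%, 64.8% and 60.8% in PC3 NSI and 51.6%, 50.9% and 52.7% in PC3 siFOXA1. In VCaP that share was 59.4%, 59.7% and 61.4% with NSI and 52.9%, 53.2% and 52.2% with siFOXA1. The groups were apart in both lines. The ratio of CLK1 to SRPK1 per kilobase went from 0.764 ± 0.0923 to 1.35 ± 0.0359 in VCaP and from 1.08 ± 0.0421 to 1.54 ± 0.300 in PC3 (SD, n = 3). In PC3 only the SRPK1 part of that ratio passed, at -0.45, with CLK1 at 0.055.

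**Figure D2:**
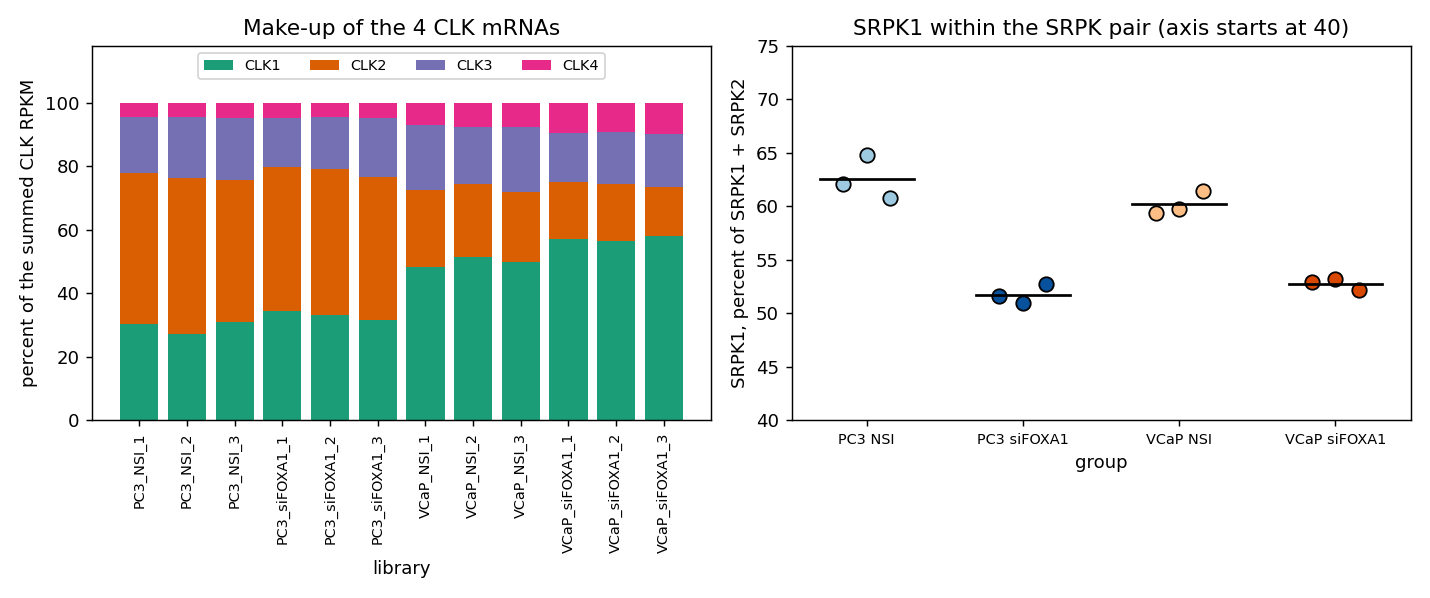
The left panel stacks the share of each CLK gene in the CLK total per kilobase (percent) for the 12 libraries. The right panel plots SRPK1 as a percent of SRPK1 plus SRPK2 per library, with bars at the means and an axis that starts at 40: the siFOXA1 points lie at 50.9% to 53.2% and the NSI points at 59.4% to 64.8%.

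PRPF4B (ENSG00000112739.16_2, chr6:4021560-4062141, plus strand) stood at 32.3, 36.7 and 30.0 CPM in VCaP NSI and at 40.9, 36.4 and 42.5 in VCaP siFOXA1. The groups overlapped through 1 library on each side, and the log2 fold change of 0.28 (SE 0.09) passed. Leaving out NSI library 1 (0.26) or 3 (0.21), or siFOXA1 library 1 (0.26) or 3 (0.23), ended the call, as did 4 other alternatives. In PC3 the NSI libraries were spread over 67.5, 46.4 and 68.9 CPM around siFOXA1 libraries at 61.1, 56.6 and 59.9, and the log2 fold change was -0.04 (SE 0.15). NSI replicate 2 was the low library. Without it the log2 fold change was -0.16, and the difference between the lines given below passed, at 0.46.

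DYRK1A (ENSG00000157540.20_4, chr21:38738092-38898660, plus strand) stood at 67.2, 55.4 and 62.2 CPM in PC3 NSI and at 49.8, 46.0 and 50.5 in PC3 siFOXA1, without overlap. Its log2 fold change there was -0.34 (SE 0.10) and passed. The call passed in 9 of 16 alternatives, the replicate block among them. Of the 6 that leave out 1 library, which use no pairing, it held only without PC3 NSI replicate 2, with log2 fold changes between -0.36 and -0.25 over the 6. In VCaP DYRK1A stood at 242.8, 255.8 and 246.6 CPM with NSI and at 255.6, 252.3 and 260.7 with siFOXA1. Those groups overlapped, and the log2 fold change was 0.04 (SE 0.06).

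Counted over the set, 0 of the 8 kinases were called higher and 2 lower in PC3 (SRPK1, DYRK1A), where 13.8% of all genes tested were called higher and 13.8% lower. That split was 3641 to 3636 genes, and 4583 to 2554 with library size alone. By DESeq2 and at an unadjusted edgeR p under 0.05 the count of kinases higher in PC3 was also 0. In VCaP 3 were called higher (CLK1, CLK4, PRPF4B) and 1 lower (SRPK1), where 21.8% and 23.8% of all genes were. All siFOXA1 libraries lay above all NSI libraries for SRPK2 in PC3 and for CLK1, CLK4 and SRPK2 in VCaP, as they did for 22.3% and 27.2% of all genes. They lay below for CLK3, SRPK1 and DYRK1A in PC3 and for SRPK1 in VCaP, as for 22.6% and 28.8% of all genes. The median log2 fold change of the 8 was -0.12 in PC3, against -0.015 over all genes tested, and 0.07 in VCaP, against 0.01. Nothing about the set is read from these counts, since it was proposed with them known.

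**Figure D3:**
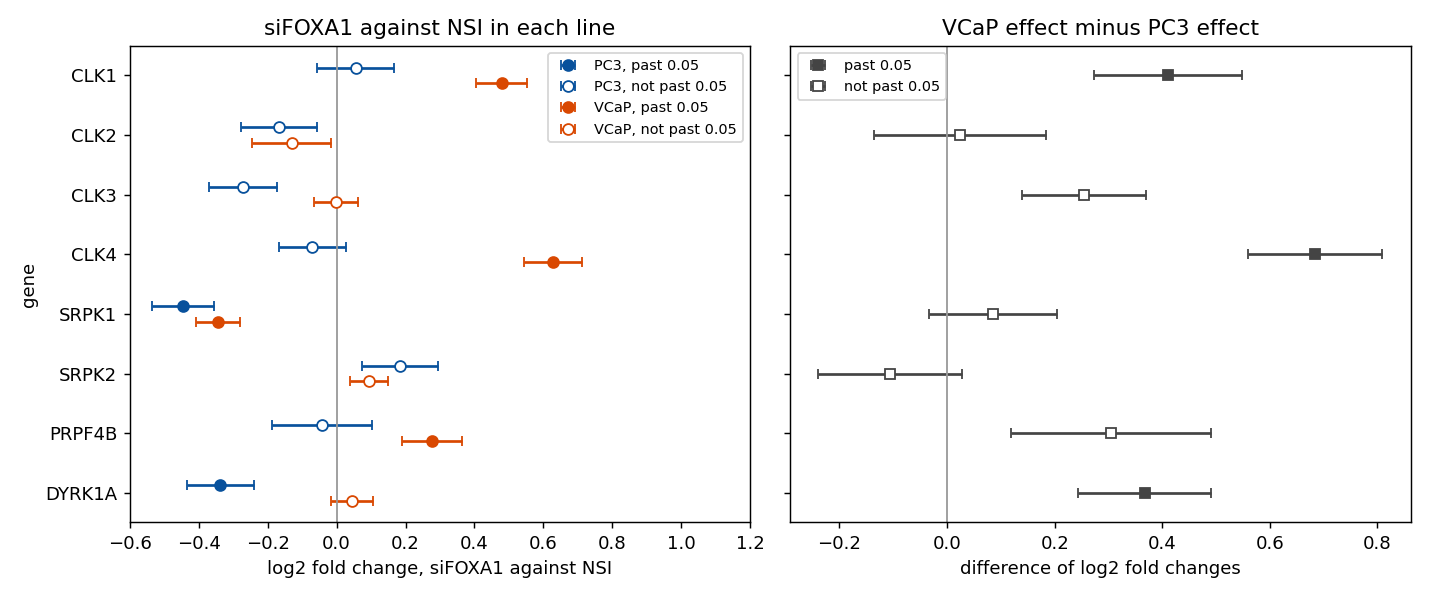
The left panel plots each kinase's log2 fold change of siFOXA1 against NSI with its standard error in PC3 and VCaP, and the right panel the VCaP change minus the PC3 change from a fit over 12 libraries. Filled symbols passed an adjusted p under 0.05. In the left panel SRPK1 is filled on the negative side in both lines, DYRK1A on the negative side in PC3, and CLK1, CLK4 and PRPF4B on the positive side in VCaP. In the right panel CLK1, CLK4 and DYRK1A are filled.

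The difference of the siFOXA1 effect between the lines was fitted as an interaction over the 12 libraries. CLK4 differed by 0.68 (SE 0.125), CLK1 by 0.41 (SE 0.14) and DYRK1A by 0.37 (SE 0.12) on the log2 scale, each more positive in VCaP, and these 3 passed. Of all genes tested, 10.9% passed with a more positive and 11.3% with a more negative effect in VCaP, and the set's median was 0.28 against 0.04. PRPF4B differed by 0.30 (SE 0.19), CLK3 by 0.255 (SE 0.115), SRPK1 by 0.09 (SE 0.12), CLK2 by 0.02 (SE 0.16) and SRPK2 by -0.11 (SE 0.13), none of which passed. With the replicate block CLK3 also passed, at 0.25, where 14.7% of all genes passed with a more positive effect.
The difference of CLK4 passed in all 21 alternatives. That of CLK1 passed in 8 of 21, and of the 12 fits that leave out 1 library only when the library left out was number 2 of PC3 NSI, number 1 of PC3 siFOXA1 or number 2 of VCaP NSI, with values between 0.31 and 0.49 over the 12. That of DYRK1A passed in 6 of 21, and of those 12 only when it was number 2 of PC3 NSI or number 3 of PC3 siFOXA1, with values between 0.26 and 0.44. Line, library kit, siRNA dose, medium, strand setting and remaining FOXA1 differ together and cannot be told apart.

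Genes with the pattern most like that of CLK1 and CLK4 were sought over the 9843 genes that averaged 5 CPM or more in both lines, by the root mean square difference of log2 CPM over the 12 libraries after centring within a line. For CLK1 they were SBNO2 (0.068), ERP44 (0.068) and AKAP17A (0.072), with CLK4 in place 6 (0.077). AKAP17A encodes a splicing-related protein that anchors protein kinase A. For CLK4 they were CBWD6 (0.052), TMEM50B (0.058) and COQ10B (0.06), with CLK1 in place 9. CBWD6 belongs to a family of near-identical copies, so its counts depend on how shared reads were divided.

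The control libraries of the lines were compared as well, a contrast that the choice of the kinases did not use. Values per kilobase of exon (RPKM) set levels of different genes side by side, given the length by which counts are divided. That length covers all annotated exons of a gene: 19011 bases for DYRK1A and 2166 (CLK2) to 4620 (SRPK1) for the others. In PC3 NSI DYRK1A averaged 61.6 CPM and CLK1 53.8, so the place of DYRK1A below CLK1 rests on that length. In PC3 NSI the order was CLK2 at 35.0 ± 2.65 RPKM, CLK1 at 21.8 ± 0.744, SRPK1 at 20.1 ± 1.22, CLK3 at 13.9 ± 1.19, PRPF4B at 13.8 ± 2.86, SRPK2 at 12.1 ± 1.64, CLK4 at 3.38 ± 0.141 and DYRK1A at 3.24 ± 0.311 (SD, n = 3). Neighbours overlapped between CLK1 and SRPK1, among CLK3, PRPF4B and SRPK2, and between CLK4 and DYRK1A. In VCaP NSI SRPK1 led at 24.4 ± 1.39 RPKM, followed by CLK1 at 18.6 ± 1.78, SRPK2 at 16.2 ± 0.385, DYRK1A at 13.1 ± 0.352, CLK2 at 8.59 ± 0.974, PRPF4B at 7.48 ± 0.767, CLK3 at 7.34 ± 0.368 and CLK4 at 2.77 ± 0.228. Only CLK2, PRPF4B and CLK3 overlapped with a neighbour there. After siFOXA1 CLK1 led in VCaP, at 25.9 ± 1.01 RPKM against 19.3 ± 0.304 for SRPK1, with the libraries apart.

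**Figure D4:**
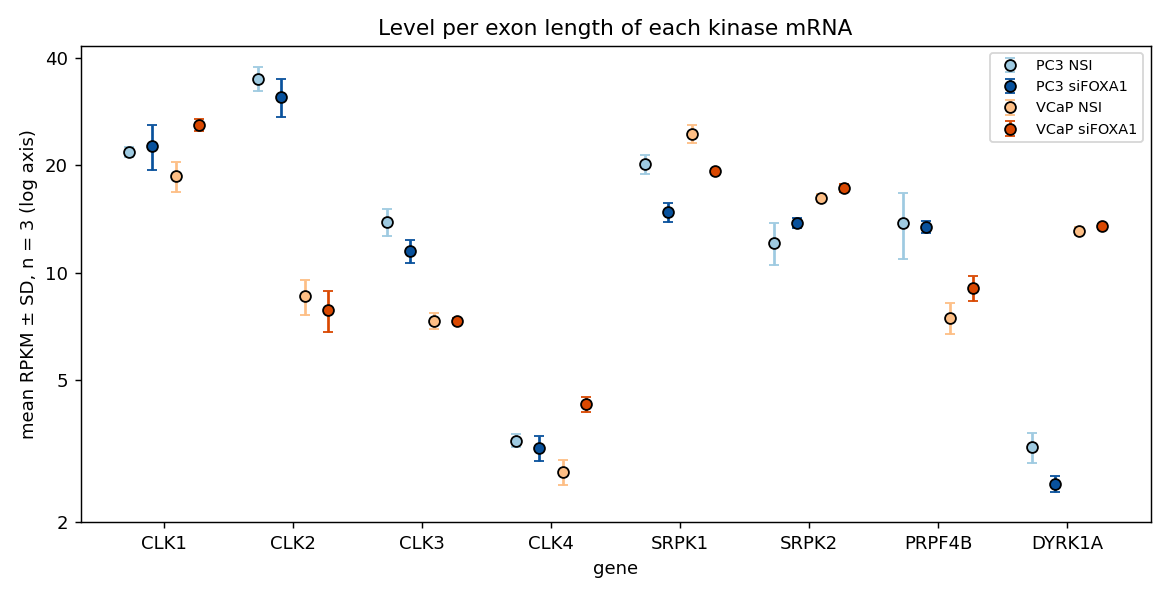
Mean RPKM of each kinase in the 4 groups on a log axis, with the SD of 3 libraries. CLK2 is highest in PC3 and DYRK1A lies at 3.24 in PC3 NSI against 13.1 in VCaP NSI.

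Between the NSI libraries CLK2 was 4.46-fold higher in PC3 than in VCaP (log2 2.16, SE 0.11, edgeR adjusted p = 3.36e-09). CLK3 was 2.07-fold higher (log2 1.05, SE 0.10, edgeR adjusted p = 9.68e-07) and PRPF4B 2.03-fold (log2 1.02, SE 0.15, edgeR adjusted p = 4.43e-05). DYRK1A was lower in PC3 at a log2 difference of -1.88 (SE 0.105, edgeR adjusted p = 6.59e-09), that is 0.272 times the VCaP level. These 4 passed in all 16 alternatives, but the size of each difference depended on the scaling. By DESeq2 the log2 differences were 1.94 for CLK2, 0.84 for CLK3, 0.80 for PRPF4B and -2.09 for DYRK1A. Under upper-quartile scaling they were 1.715, 0.61, 0.58 and -2.32. CLK4 at 0.425 (SE 0.11, edgeR adjusted p = 0.00277) and CLK1 at 0.36 (SE 0.10, edgeR adjusted p = 0.005) passed, but under upper-quartile scaling they were at -0.02 and -0.08. Neither passed by DESeq2 (0.21 and 0.145) or with library size alone (0.24 and 0.18). SRPK2 at -0.28 (SE 0.11, edgeR adjusted p = 0.0342) passed, though not without VCaP NSI replicate 2 or 3, where it was -0.285 and -0.30. SRPK1 at -0.15 (SE 0.10) did not pass, with an edgeR adjusted p = 0.173. SRPK1 passed in 5 of the 16 alternatives, and each of these 5 scales the libraries otherwise. It was at -0.27 with TMM factors taken after the filter, -0.28 with DESeq2 size factors and -0.33 with library size alone. By DESeq2 it was at -0.36, and under upper-quartile scaling at -0.59. The counts of 5 higher and 2 lower stood against 47.4% and 39.8% of all genes tested, and upper-quartile scaling shifted the median of all genes by -0.45 from 0.24. Kit, RNA type, dose and medium changed with the line and cannot be told apart from it. CLK3 has 6.54% of its exon bases opposite an antisense gene, and the PC3 counts ignored strand. That gene held 0.5 to 9.0 counts per library in PC3, with a mean at 0.09% of the CLK3 mean, and 47.5 to 68.0 in VCaP. DYRK1A has 0.75% of its exon bases opposite an antisense gene and 1.23% in a gene on its own strand. Their PC3 means were 0.14% and 0.06% of the DYRK1A mean.

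The genes for the proteins that these kinases phosphorylate were counted against all genes tested, of which 13.8% rose and 13.8% fell in PC3 and 21.8% rose and 23.8% fell in VCaP. Of the 12 SR protein genes (SRSF1 to SRSF12), 0 rose and 6 fell in PC3, and 1 rose and 6 fell in VCaP, with medians of -0.275 and -0.19 against -0.015 and 0.01 over all genes tested. At an unadjusted edgeR p under 0.05, and by DESeq2, 1 rose in PC3. Over the alternatives 2 to 7 fell in PC3 and 3 to 7 in VCaP. The largest falls were SRSF3 in PC3, at a log2 fold change of -0.67 (SE 0.09, edgeR adjusted p = 0.00142), and SRSF8 in VCaP, at -1.04 (SE 0.06, edgeR adjusted p = 1.57e-06). SRSF5 rose in VCaP by 0.27 (SE 0.07, edgeR adjusted p = 0.0108). A further list held 18 other phosphorylated partners, namely splicing proteins and LBR, which is not part of the splicing machinery. Of these 0 rose and 6 fell in PC3, and 1 rose and 5 fell in VCaP, LBR being among the falls in each line. The rises in PC3 were also 0 by DESeq2 and at an unadjusted edgeR p under 0.05. The falls of these partners in VCaP are near the 23.8% of all genes. Over the alternatives 3 to 10 fell in PC3 and 2 to 8 in VCaP. U2AF2, which binds the polypyrimidine tract, had the largest fall in PC3 (-0.61, SE 0.11, edgeR adjusted p = 0.00565). LBR, the lamin B receptor and a known SRPK1 substrate, had the largest in VCaP (-0.495, SE 0.08, edgeR adjusted p = 0.00062). TRA2A, an SR-like splicing activator, was the riser in VCaP (0.20, SE 0.06, edgeR adjusted p = 0.0288). That call was lost without NSI library 1 or 3 or siFOXA1 library 1 or 2, with values from 0.16 to 0.24 over the 6 fits that leave out a library.

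Phosphatases that remove the phosphates, and carriers such as the SR protein importin TNPO3, gave 0 rises and 2 falls of 8 in PC3, where 13.8% of all genes rose and 13.8% fell, and 0 rises and 5 falls in VCaP, where 21.8% rose and 23.8% fell. The rises were also 0 by DESeq2 and at an unadjusted edgeR p under 0.05, and over the alternatives 1 to 5 fell in PC3 and 2 to 7 in VCaP. The largest were PPP1CC, a catalytic subunit of protein phosphatase 1, in PC3 (-0.53, SE 0.08, edgeR adjusted p = 0.00227) and PPP2CA, that of protein phosphatase 2A, in VCaP (-0.82, SE 0.06, edgeR adjusted p = 5.52e-06). Of 13 related kinases 1 rose and 0 fell in PC3, DYRK4 by 0.47 (SE 0.13, edgeR adjusted p = 0.0258). Of the 6 fits without a library that call held in 1, without NSI library 2, with values from 0.37 to 0.60. HIPK3 at an unadjusted edgeR p under 0.05 made 1 fall in PC3, where DESeq2 called 0. In VCaP 12 were tested, and 2 rose and 5 fell, against the same 21.8% and 23.8% of all genes, with 1 to 5 falls over the alternatives. HIPK2 had the largest fall (-1.26, SE 0.08, edgeR adjusted p = 2.65e-06) and SRPK3, the SRPK of muscle, the largest rise (0.495, SE 0.11, edgeR adjusted p = 0.00557). The median of this list was 0.04 in PC3 and -0.11 in VCaP.

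**Figure D5:**
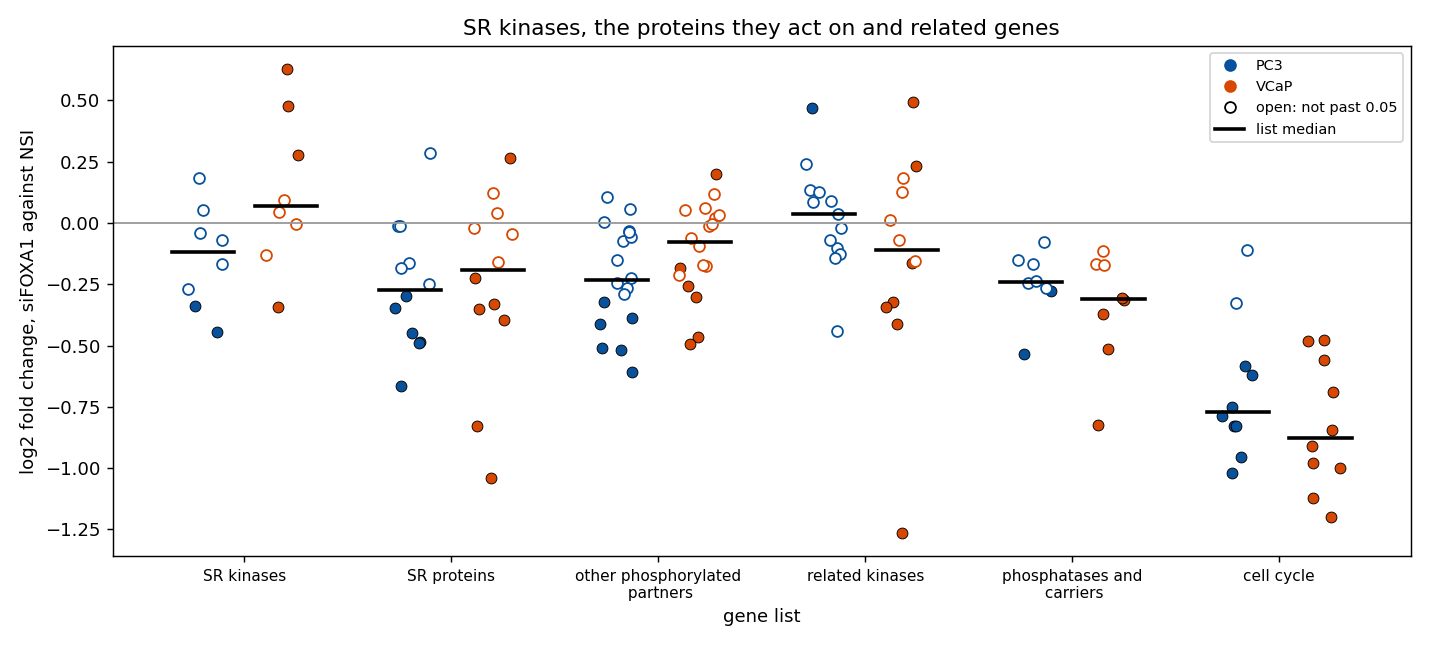
Each point is a gene, with its log2 fold change of siFOXA1 against NSI on the vertical axis, PC3 in blue and VCaP in orange, and the black bars are list medians. Filled points passed an adjusted p under 0.05: the SR protein median lies at -0.275 in PC3 and -0.19 in VCaP, and all cell cycle genes lie below 0 in both lines.

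Other gene groups and library features moved with siFOXA1 beside the kinases. Of 10 interferon response genes, 10 rose in PC3 (MX1 by 4.34, edgeR adjusted p = 2.43e-05), and their summed level was 520.2 to 772.1 CPM with NSI and 5904 to 6214 with siFOXA1. In VCaP 7 rose (OAS1 by 1.54, edgeR adjusted p = 1.81e-06) and 2 fell (ISG15 at -0.705, edgeR adjusted p = 0.00259), and the sums were 158.5 to 165.5 and 146.2 to 156.5 CPM. Some of these VCaP rises were at low levels: OAS2 went from 0.101 to 0.285 CPM, IFIT1 from 0.728 to 1.33 and IFIT3 from 1.16 to 3.20. Of 10 cell cycle genes 8 fell in PC3 and 10 in VCaP, PLK1 at -1.02 and -1.20 (edgeR adjusted p = 5.96e-05 and 8e-05). Over all genes tested 13.8% rose and 13.8% fell in PC3, and 21.8% rose and 23.8% fell in VCaP. Their sums were 528.4 to 540.5 against 339.2 to 354.6 CPM in PC3 and 1746 to 1926 against 954.3 to 1303 in VCaP. The mitochondrial share of counts was 3.02% to 3.29% in VCaP NSI and 4.04% to 4.69% in VCaP siFOXA1, and 13.1% to 15.7% over the PC3 libraries. The 6 fibroblast markers summed to 23.9 to 28.5 CPM in PC3 NSI and 45.6 to 50.8 in PC3 siFOXA1, and to 11.5 to 20.6 and 1.58 to 7.60 CPM in VCaP, with DCN under 0.1 CPM in every group. In PC3 3 of them rose and 1 fell. COL3A1 rose there by 2.26 (edgeR adjusted p = 2.9e-05) and COL1A1 went from 20.9 to 31.5 CPM. PDGFRB fell at -0.666 (edgeR adjusted p = 0.0343). In VCaP 0 rose and 2 fell, LUM at -3.98 (edgeR adjusted p = 1.05e-06), from 10.5 to 0.664 CPM. The leukocyte and endothelial markers summed to between 0.308 and 5.61 CPM, with CD3E under 0.1 CPM in every group. Among them CD14 rose in VCaP by 1.955 (edgeR adjusted p = 2.04e-05), from 0.700 to 2.71 CPM, and VWF fell at -1.20 (edgeR adjusted p = 5.66e-05), from 4.31 to 1.88 CPM. PTPRC rose in PC3 by 2.16 (edgeR adjusted p = 0.0327), from 0.0240 to 0.108 CPM, and 0 to 2 of the list rose there over the alternatives. The part of these features in the kinase values was not tested. A PC3 library held 123140099 to 188226483 counts and a VCaP library 48187047 to 59839211.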

How the data were processed

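Of each library the authors deposited estimated counts per gene (expected counts, with fractions). Per the file headers, featureCounts 2.0.0 summed fragments with both ends mapped over exons of GENCODE 28 lifted to GRCh37, and divided fragments with several places or genes among them. Per the same headers the counts ignored strand in PC3 and used it in VCaP. The submitters' processing notes name STAR 2.7.3a. Of the non-zero values, 54.8% to 75.2% per library were not whole, and counts were rounded here. The members and gene lists were chosen with earlier results of these data known.

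edgeR 4.0.16 (R 4.3.3) fitted each comparison with TMM factors from all genes with a count, its filter on low counts, a quasi-likelihood test and Benjamini-Hochberg adjustment over all genes tested, at 0.05. All 8 members passed the filter in every comparison. The difference between lines was an interaction over 12 libraries. edgeR's biological coefficient of variation came to 15.0% (PC3) and 9.90% (VCaP). RPKM are CPM per kilobase of all annotated exons of a gene. Replicates of a group differed by more than sampling noise (chi-square per degree of freedom of 11.0 to 158.5). In PC3 libraries with the same replicate number deviated together (correlations of 0.41, 0.57 and 0.20), and in VCaP they did not all do so (0.09, 0.04 and 0.35). The main fits used no pairing in either line, and the replicate block was run as an alternative. Every member is named. Of each other list the largest called rise and fall per line are named, and for CLK1 and CLK4 the 3 genes nearest in pattern. Alternatives were other size factors, no filter or a filter in each line, DESeq2 1.42.0, the replicate block, a minimum fold, a fit over 12 libraries and leaving out each library. TMM factors taken after the filter were added after the data were seen. Sequences were read from GENCODE transcripts and the RefSeq promoter table, with motifs searched in Python 3.11.15.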

Additional observations from a re-analysis of the deposited data

Results flagged for a closer look

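The siFOXA1 effect differed between the lines for 3 kinases, by the interaction term of the edgeR fit over 12 libraries. CLK4 differed by 0.684 on the log2 scale (0.63 in VCaP, -0.07 in PC3), CLK1 by 0.411 (0.48 and 0.055) and DYRK1A by 0.367 (0.04 and -0.34), each more positive in VCaP. These differences are built from the comparisons on which the kinases were selected.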

How the results depend on the processing

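The counts of kinases past the threshold were 2 in PC3, 4 in VCaP, 3 for the difference between lines and 7 between the NSI groups. Leaving out each library in turn gave 1 to 2, 3 to 4, 1 to 4 and 6 to 7. In PC3 the count was 1 with library size alone and 0 where a log2 change beyond 0.26 was required. That requirement left 2 in VCaP and 1 for the difference, which was also 1 with DESeq2 size factors, with library size alone and with no filter on low counts. With the replicate block, pairing libraries by number, the counts were 3, 4, 4 and 7: CLK3 was added in PC3 and in the difference, and no other member call changed. In VCaP the numbers are only shared. Between the NSI groups upper-quartile scaling put CLK1 at -0.083 and CLK4 at -0.019, against 0.36 and 0.425. The median of all genes tested shifted by -0.454 under the same setting, and the reason for that shift was not tested. Upper-quartile scaling changed the share of higher among all calls in PC3 from 50.03% to 40.56%, and library size alone to 64.21%. The falls of SRPK1 within each line and the VCaP rises of CLK1 and CLK4 kept their direction in every alternative run. The difference of SRPK1 between the lines, which did not pass, was -0.03 without PC3 siFOXA1 replicate 2. At 11.1 CPM CLK4 had the fewest reads of the set in VCaP NSI.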
